A study of Mus musculus with 18 samples.

Results

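The oligodendrocyte precursor genes Pdgfra, Cspg4, Olig1, Olig2, Sox10, Gpr17 and Nkx2-2 were read from poly(A) RNA-seq of mouse brain. All 7 were found by symbol among the 24062 gene rows of the count table. The libraries came from C57BL/6 mice that were either wildtype (WT) or heterozygous for Chd2 (HET, labelled Chd2 het), a gene that encodes a chromatin remodeller. RNA came from the medial ganglionic eminence (MGE, the ventral forebrain zone that gives rise to cortical interneurons and to early oligodendrocyte precursors) on embryonic day E13.5, the cortex of the same day, and the hippocampus on postnatal day 45. Each of the 6 groups of tissue and genotype held 3 libraries, 18 in all, with 26841671 to 38802765 counts per library. The labels do not say whether the 3 libraries of a group are separate animals, so p-values measure the spread between these libraries, which may be technical. In cortex, sex-linked genes show that each group drew on more than a single animal.

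Oligodendrocyte precursors arise from ventral progenitors that receive Sonic hedgehog signal and express the basic helix-loop-helix factors Olig2 and Olig1. They then turn on Sox10, a SoxE factor that activates myelin genes, and display the PDGF receptor Pdgfra, which carries their growth signal, and the proteoglycan NG2, the product of Cspg4. Gpr17, a G protein-coupled receptor, marks precursors that have committed to differentiate, and the homeodomain factor Nkx2-2 acts at that step. None of the 7 belongs to precursors alone. Olig1 and Olig2 are also expressed by ventral forebrain progenitors, Pdgfra by meningeal fibroblasts, Cspg4 by pericytes and other mural cells of vessels, and Sox10 and Olig1 by mature oligodendrocytes.

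In mm10 with the GENCODE M21 gene models, Pdgfra lies on chromosome 5 at 75152292 to 75198215 and Cspg4 on chromosome 9 at 56865033 to 56899870, both on the forward strand. Olig2 (91225457 to 91228677) and Olig1 (91269772 to 91271933) are neighbours on the forward strand of chromosome 16, with 41094 bases between them. Sox10 is on the reverse strand of chromosome 15 at 79154908 to 79165240, and Nkx2-2 on the reverse strand of chromosome 2 at 147177546 to 147194243. Gpr17 is on a reverse strand, and its whole span of 6640 bases overlaps the Lims2 gene on the other strand. Nkx2-2 shares 10161 bases with the antisense gene Nkx2-2os. Whether the counting used strand is not given in the sources used here, so reads of Gpr17 and Nkx2-2 cannot be told from reads of those partners. Lims2 itself was counted at 0.280 to 0.666 CPM, reads scaled to a common library total, in the 6 MGE libraries and at 10.9 to 16.5 CPM in the 6 hippocampal libraries. Nkx2-2os was at 0 in the embryonic libraries and at 0.103 to 1.21 CPM in hippocampus.

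RefSeq upstream windows were at hand for 4 of the 7 genes. Of these, 3 are shown, because Olig2 had the lowest p of all genes between the WT embryonic tissues, Cspg4 was the member that differed by genotype, and Pdgfra is the surface receptor set beside it. Each sequence is the outer 150 bases of the gene's RefSeq upstream window (GRCm38.p6), 5′ to 3′, and capitals mark E-boxes (CANNTG) and GC boxes (GGGCGG on either strand).
Olig2, chr16:91225300-91225449, forward strand: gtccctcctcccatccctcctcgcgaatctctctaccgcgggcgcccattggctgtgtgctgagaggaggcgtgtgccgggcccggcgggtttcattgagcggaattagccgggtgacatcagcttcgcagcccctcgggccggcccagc
Cspg4, chr9:56864854-56865003, forward strand: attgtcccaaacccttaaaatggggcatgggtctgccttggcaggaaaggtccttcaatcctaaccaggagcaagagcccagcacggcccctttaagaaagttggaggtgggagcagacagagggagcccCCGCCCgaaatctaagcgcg
Pdgfra, chr5:75152001-75152150, forward strand: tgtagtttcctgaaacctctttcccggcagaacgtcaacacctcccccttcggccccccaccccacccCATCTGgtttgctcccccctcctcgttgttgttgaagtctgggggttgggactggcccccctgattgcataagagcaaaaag
The Olig2 window held neither motif and 14 CG dinucleotides, against a median of 3 over 32851 windows of the same length. Cspg4 held 1 GC box and Pdgfra 1 E-box. A GC box was found in 16.7% and an E-box in 49.3% of all these windows. These letters describe the windows and identify no bound factor.

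The targeted gene went the way of the labels. Chd2 was at 154 to 175 CPM in WT MGE and 136 to 145 in HET MGE, at 143 to 154 against 125 to 125 in cortex, and at 69.8 to 78.1 against 63.8 to 66.6 in hippocampus, so every HET library was below every WT library of its tissue. The differences of -0.24, -0.22 and -0.17 did not pass the threshold on all genes (edgeR adjusted p = 0.980, 0.578 and 0.191). The dissections also matched their labels by region. Nkx2-1, the factor that defines the MGE, was at 789 to 952 CPM in MGE and at 0.383 to 1.55 CPM in cortex. Xist was at 1737 to 1920 CPM in the 3 WT MGE libraries and at 0.4996 to 1.08 in the 3 HET ones, whose sum over Y-linked genes was 212 to 260 CPM, so genotype and these sex markers cannot be told apart in MGE. All 6 hippocampal libraries were high in Xist, and cortex was mixed. Cortex WT 1, HET 1 and HET 3 were high in Y-linked genes and the other cortex libraries in Xist. Cortex HET 1 and HET 2 stood apart from the other 4 cortex libraries, and 4598 genes were called by genotype in cortex once HET 3 was left out.

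**Figure D1:**
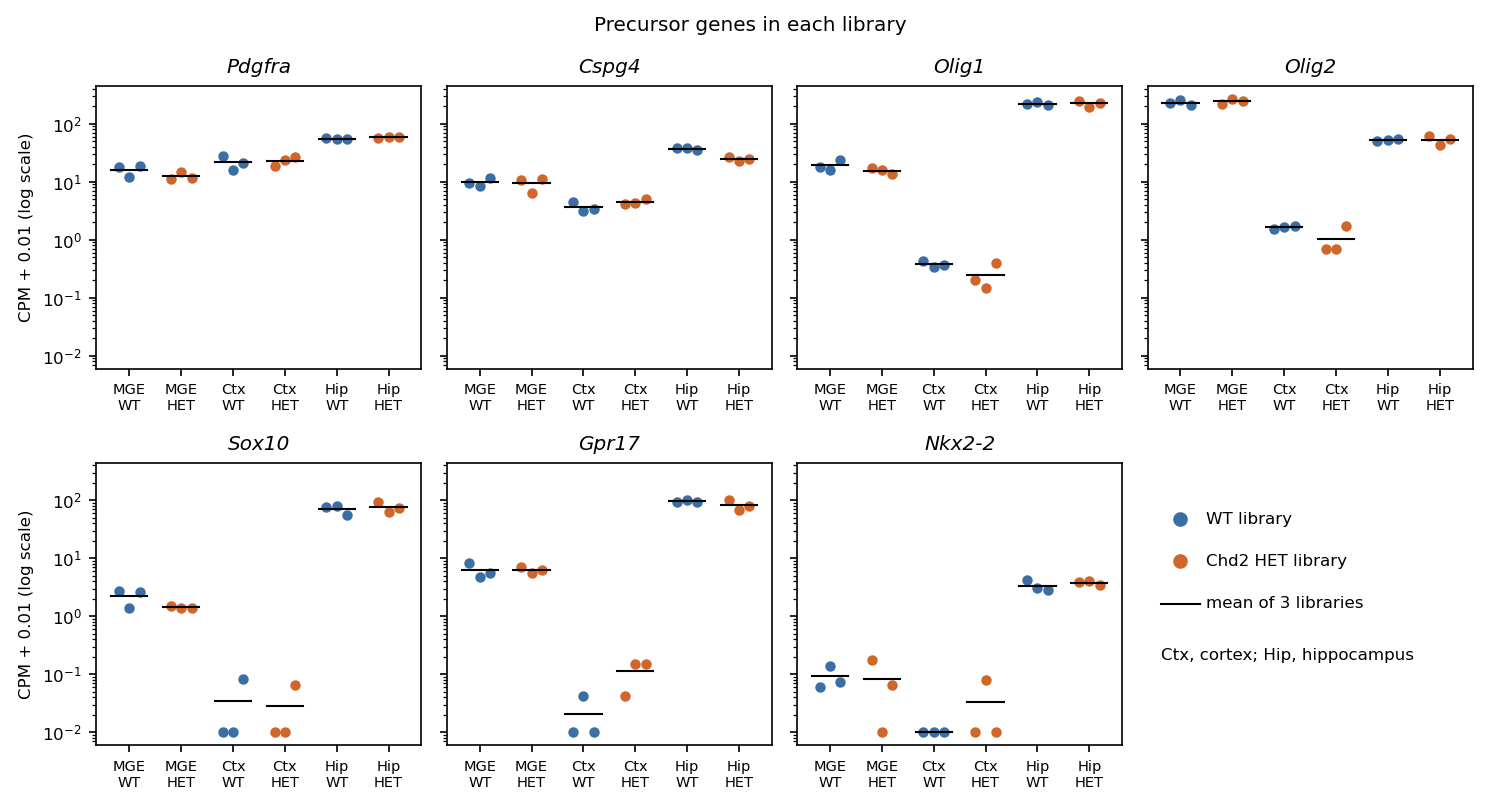
Each panel plots 1 gene, with CPM + 0.01 on a log axis against the 6 groups; points are libraries and lines are means of 3. Olig2 is highest in MGE, whereas the other 6 genes are highest in hippocampus, and Sox10, Gpr17 and Nkx2-2 are near 0 in cortex.

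Most of the precursor genes differed strongly between tissues, and 1 of them, Cspg4, was called by genotype, in hippocampus. That call was lost without hippocampus HET 3 and in 1 fit of all 18 libraries. Olig2 was highest in MGE, more than 100-fold above cortex and above its own hippocampal level. The other 6 genes were highest in hippocampus. In E13.5 cortex only Pdgfra and Cspg4 were above 3 CPM in every library. Levels below are CPM after TMM scaling over all 18 libraries, and differences are log2 ratios from edgeR's robust quasi-likelihood test, each with its SE and a p-value adjusted over all genes tested (Benjamini-Hochberg, threshold 0.05).

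Per kilobase of exon, the scale on which genes can be compared, Olig2 led in WT MGE at 91.5 ± 8.14 CPM per kb (SD, n = 3). Olig1 followed at 8.85 ± 2.00, and Pdgfra at 1.60 ± 0.342, Gpr17 at 1.18 ± 0.358, Cspg4 at 0.821 ± 0.140 and Sox10 at 0.721 ± 0.238 overlapped with their neighbours in the order. Nkx2-2 was last, at 0.0285 ± 0.0146. In WT hippocampus the order was different. Olig1 led at 102 ± 5.21 CPM per kb, Sox10 at 23.2 ± 4.28, Olig2 at 20.6 ± 1.06 and Gpr17 at 18.4 ± 1.11 formed a middle tier in which neighbours overlapped, and Pdgfra at 5.53 ± 0.211, Cspg4 at 3.13 ± 0.131 and Nkx2-2 at 1.17 ± 0.248 followed without overlap. In WT cortex Pdgfra led at 2.16 ± 0.612 CPM per kb, above Olig2 at 0.639 ± 0.0314.

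Olig2 had the lowest p of all genes between the WT embryonic tissues. It was at 230, 253 and 211 CPM in the 3 WT MGE libraries and at 217, 268 and 250 in the HET ones. In cortex it was at 1.54, 1.62 and 1.70 CPM in WT and at 0.671, 0.685 and 1.70 in HET. No MGE library came near a cortex library. Between WT MGE and WT cortex the difference was 7.17 on the log2 scale (SE 0.12, edgeR adjusted p = 1.06e-10), which ranked 1 of 14739 genes by p. Between the HET tissues it was 7.87 (SE 0.35, adjusted p = 3.48e-06).

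Olig1, the neighbour of Olig2 and a member of its family, had the same order of embryonic tissues at lower levels. It was at 17.6, 15.8 and 24.0 CPM in WT MGE and at 17.0, 15.6 and 13.3 in HET MGE. In cortex it was at 0.422, 0.323 and 0.361 CPM in WT and at 0.192, 0.137 and 0.391 in HET. The difference of MGE from cortex was 5.69 (SE 0.25, adjusted p = 6.30e-08) in WT and 5.93 (SE 0.34, adjusted p = 1.02e-05) in HET. In the cortex libraries Olig1 rested on few reads, 34 counts over the 3 WT libraries and 24 over the 3 HET libraries.

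Sox10 and Gpr17 were detected in every MGE library and were nearly silent in cortex. Sox10 was at 2.68, 1.36 and 2.56 CPM in WT MGE, and only 2 reads were counted over the 3 WT cortex libraries, a ratio of 103 with a 95% counting interval of 28.1 to 854. Gpr17 was at 8.26, 4.74 and 5.47 CPM in WT MGE, with 1 read over the 3 WT cortex libraries, a ratio of 581 with an interval of 104 to 22989. In HET the same ratios were 67.9 (18.5 to 566) for Sox10 and 60.5 (32.7 to 127) for Gpr17, on 2 and 10 cortex reads. These intervals cover counting error only, since reads are not independent molecules. Nkx2-2 was at the edge of detection in both embryonic tissues, with 8 reads in each MGE group, none in WT cortex and 2 in HET cortex, and was not tested there.

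Cspg4 and Pdgfra, the surface proteins by which precursors are usually sorted, differed less between the embryonic tissues than Olig1 and Olig2. Cspg4 was at 9.38, 8.37 and 11.6 CPM in WT MGE and at 4.40, 3.07 and 3.36 in WT cortex, without overlap and with a difference of 1.44 (SE 0.21, adjusted p = 0.000243). In HET it was at 10.7, 6.35 and 10.95 CPM in MGE and at 4.06, 4.21 and 4.94 in cortex, a difference of 1.08 (SE 0.25, adjusted p = 0.0138). That call was lost without MGE HET 3 (adjusted p = 0.0686). It was also lost without cortex HET 1 and HET 2 (adjusted p = 0.0905), which leaves 1 HET cortex library that is assumed to vary like the 3 MGE libraries.

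Of the 6 members tested between MGE and cortex, Pdgfra was the one not called higher in MGE. It was at 17.7, 12.1 and 18.4 CPM in WT MGE and at 28.1, 15.9 and 21.01 in WT cortex, which overlapped. The difference was -0.43 (SE 0.23, adjusted p = 0.161), and it passed the threshold with the replicate number as a block (adjusted p = 0.0231) or without cortex WT 2 (adjusted p = 0.0292). In HET, Pdgfra was at 11.2, 14.5 and 11.6 CPM in MGE and at 18.8, 23.5 and 26.8 in cortex, a difference of -0.89 (SE 0.18, adjusted p = 0.00779). The 7 other markers of meningeal fibroblasts summed to 494 to 803 CPM in WT cortex, 797 to 1137 in HET cortex and 161 to 233 in the MGE libraries. Of these 7, 6 were lower in WT MGE than in WT cortex, among them Dcn (-5.75, SE 0.28, adjusted p = 9.48e-07) and Col3a1 (-4.56, SE 0.24, adjusted p = 9.12e-06), while Fn1 was at 0.04 (SE 0.19). Their part in the Pdgfra difference was not tested.

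In all, 5 of the 7 members were called higher in WT MGE than in WT cortex and none lower, against 24.9% of 14739 genes higher, 24.5% lower and 49.4% called in either direction. In HET, 5 were higher and Pdgfra was lower, against 11.4% of 14831 genes higher, 14.6% lower and 25.9% in either direction. Sox10 and Gpr17 passed the filter on low counts only through MGE, so their calls had to differ. Olig1 also passed it only through MGE, in WT narrowly, as cortex WT 2 with 10 counts fell just short. The Olig1 calls are therefore no separate support. In bulk tissue, fewer cells of a type and less RNA per cell cannot be told apart.

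The genes around Olig2 in the ventral pathway showed the same divide for only some of its parts. Of 12 Sonic hedgehog pathway genes, 6 were higher in WT MGE and 5 lower, with a median difference of 0.25 against 0.00 over all genes. Over all genes 24.9% were higher and 24.5% lower. The co-receptors Cdon (-4.30, SE 0.09), Gas1 (-5.11, SE 0.15) and Boc (-3.10, SE 0.17) were all lower in MGE, with adjusted p between 5.27e-10 and 1.83e-06. The ligand Shh, singled out after its values were seen, was at 17.4 to 36.0 CPM in WT MGE and 0 to 0.0969 CPM in WT cortex. Among other genes of the families of the members, Bhlhe22, an Olig-related factor of dorsal neurons, was the reverse of Olig2 at 0.667 CPM in WT MGE and 201 CPM in WT cortex (-8.24, SE 0.20, adjusted p = 1.44e-08). Nkx6-2 was at 23.7 CPM in WT MGE and 0.0442 in WT cortex. Sox8, the SoxE relative of Sox10, was at 73.6 CPM in WT MGE and at 22.1 in WT cortex (1.75, SE 0.16, adjusted p = 3.84e-05).

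Of the 11 other precursor markers on the list, 10 could be tested between WT MGE and WT cortex, and 4 were higher and none lower. Over all genes 24.9% were higher and 24.5% lower. Ptprz1, a receptor phosphatase, was higher by 1.11 (SE 0.08, adjusted p = 2.49e-06), and Megf11 by 0.87 (SE 0.18, adjusted p = 0.00277). Tnr, an extracellular matrix protein, was not called (-0.47, SE 0.27, adjusted p = 0.176). Their median difference was 0.57, against 5.69 for Olig1 and 7.17 for Olig2.

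From E13.5 MGE to P45 hippocampus, 6 members were higher and Olig2 was lower, in WT and in HET alike. In HET, the MGE libraries were high in Y-linked genes and the hippocampal libraries in Xist. Sex markers therefore changed with tissue in HET and cannot be told apart from it. The background is large, since 83.7% of 15395 genes in WT and 83.7% of 15476 in HET were called between these tissues (higher 41.9% and lower 41.7% in WT, higher 41.9% and lower 41.8% in HET), and tissue and age cannot be told apart here. Olig2 was at 49.6, 52.1 and 55.0 CPM in WT hippocampus and at 61.1, 43.3 and 53.5 in HET, below every MGE library. The difference was -2.15 (SE 0.09, adjusted p = 8.76e-10) in WT and -2.20 (SE 0.14, adjusted p = 2.85e-07) in HET.

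Olig1 moved the other way. It was at 220, 232 and 210 CPM in WT hippocampus and at 246, 193 and 231 in HET, above every MGE library. The difference was 3.53 (SE 0.15, adjusted p = 4.90e-09) in WT and 3.88 (SE 0.13, adjusted p = 3.76e-09) in HET. In each MGE library Olig2 exceeded Olig1, by 8.80 to 15.99 times in WT and 12.7 to 18.8 times in HET on the CPM scale. In cortex the ratio was 3.64 to 5 in WT and 3.5 to 5 in HET, and in hippocampus it was 0.225 to 0.262 in WT and 0.224 to 0.249 in HET. The ranges of the 3 tissues did not overlap. The cortex ratios rest on few Olig1 reads, 10 to 14 in each WT library and 4 to 14 in each HET library. In an exact two-sided permutation test of the log2 ratio, with tissue labels exchanged within genotype, p was 0.005 for each of the 3 pairs of tissues, the smallest that 400 arrangements can give. This test was chosen after the values were seen. Within a tissue the WT and HET ranges overlapped.

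**Figure D2:**
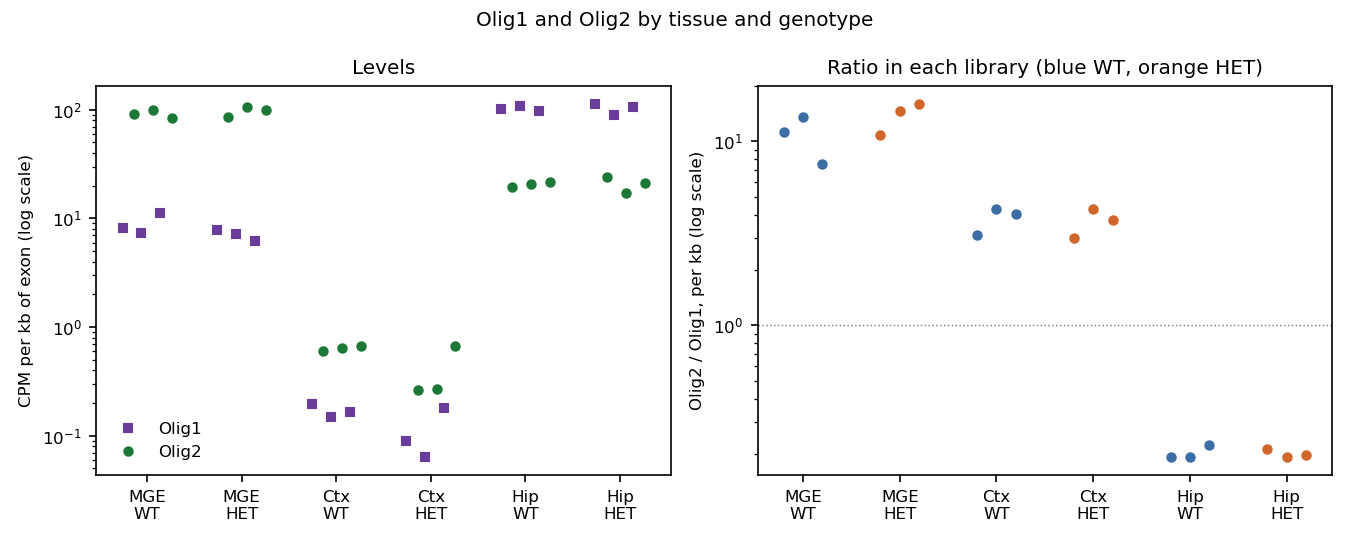
Left, CPM per kb of exon on a log axis for Olig1 (squares) and Olig2 (circles) in each library; right, their ratio per kb on a log axis, with a dotted line at 1. Olig2 is above Olig1 in the 12 embryonic libraries, by 2.99 to 16.04 times per kb, and below it in the 6 hippocampal libraries, at 0.192 to 0.224.

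Sox10, Gpr17 and Nkx2-2 also rose from MGE to hippocampus. In WT hippocampus Sox10 was at 76.7, 80.0 and 55.9 CPM and in HET at 92.9, 63.3 and 74.3, a difference from MGE of 4.99 (SE 0.24, adjusted p = 7.98e-08) in WT and 5.78 (SE 0.18, adjusted p = 1.99e-09) in HET. In WT hippocampus Gpr17 was at 91.9, 102 and 92.5 CPM and in HET at 99.1, 68.2 and 79.1, with differences of 3.94 (SE 0.18, adjusted p = 2.46e-08) and 3.72 (SE 0.16, adjusted p = 3.19e-08). Both genes were above every MGE library by more than the spread between libraries. In WT hippocampus Nkx2-2 was at 4.17, 3.08 and 2.83 CPM and in HET at 3.84, 4.06 and 3.45. It passed the filter through hippocampus, and its ratio to the 8 MGE reads was 42.2 (95% counting interval 21.1 to 98.6) in WT and 51.4 (25.8 to 120) in HET.

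The surface proteins rose less. Pdgfra was at 57.6, 53.4 and 55.1 CPM in WT hippocampus and at 55.6, 59.2 and 58.6 in HET, higher than in MGE by 1.78 (SE 0.14, adjusted p = 5.02e-07) and 2.23 (SE 0.11, adjusted p = 4.72e-08). Its 6 hippocampal libraries lay within 6 CPM of each other. Cspg4 was at 38.6, 37.7 and 35.5 CPM in WT hippocampus and at 27.1, 23.1 and 24.3 in HET, higher than in MGE by 1.93 (SE 0.13, adjusted p = 4.91e-08) and 1.42 (SE 0.20, adjusted p = 0.000133). Against cortex, all 7 members were higher in hippocampus in both genotypes, where 82% of 15448 genes in WT and 78.8% of 15440 in HET were called, with 41.1% higher and 40.9% lower in WT and 38.8% higher and 39.9% lower in HET. Sox10, Gpr17 and Nkx2-2 passed the filter on low counts only through hippocampus, so their calls had to differ. In HET, Olig1 also passed it only through hippocampus. The differences in WT were 1.41 for Pdgfra, 3.42 for Cspg4, 5.07 for Olig2 and 9.26 for Olig1. Nkx2-2, with no read in WT cortex, was at least 102-fold higher in WT hippocampus against a floor of 3 counts over the group.

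Other genes of the lineage also differed between WT hippocampus and WT MGE, as did 83.7% of all genes. Of the 11 other precursor markers, 6 were higher in WT hippocampus than in WT MGE and 3 lower. Over all genes 41.9% were higher and 41.7% lower. Neu4, a sialidase, had no read in any MGE library and was at 13.4 to 18.8 CPM in hippocampus, and Tnr was at 148 against 3.23 CPM. Vcan, the proteoglycan versican, went down with Olig2, from 329 to 29.4 CPM (-3.49, SE 0.11, adjusted p = 8.34e-11). All 12 genes of myelinating oligodendrocytes were higher in hippocampus, with a median difference of 8.02 against 0.00 over all genes. Of 12 genes of committed and newly formed oligodendrocytes, 6 were higher and 3 lower. Myrf, the regulator of myelin genes, was higher by 6.23 (SE 0.18, adjusted p = 9.73e-11), whereas Tmem2 (-3.17, SE 0.08) and Prom1 (-2.48, SE 0.12) were lower.

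Of the 6 other genes of PDGF ligands and receptors, 5 were higher in WT hippocampus than in WT MGE and 1 was lower. Over all genes 41.9% were higher and 41.7% lower. Pdgfa, the ligand of the receptor, was at 21.5 against 4.68 CPM (2.20, SE 0.15, adjusted p = 8.17e-08), Pdgfb at 37.1 against 8.70 CPM, and Pdgfc was lower (-0.80, SE 0.14, adjusted p = 0.000321). Of 12 Sonic hedgehog genes, 7 were lower in hippocampus, 2 were higher and 3 were not called, with a median of -1.28, where 41.7% of all genes were lower. Smo, the signal transducer, was lower (-2.76, SE 0.11, adjusted p = 9.65e-10) and Gas1 was higher by 1.10 (SE 0.14, adjusted p = 1.81e-05). Among 9 genes that hold back differentiation, 5 were lower and 4 higher, not far from the shares over all genes. Hes5, a Notch target, was at 8.68 against 149 CPM and Lingo1 at 313 against 6.95 CPM. The SoxD partners Sox6 (-3.46, SE 0.11) and Sox5 (-2.39, SE 0.18) were lower, and Sox8 was not called (-0.33, SE 0.15, adjusted p = 0.0733). Sox10 was the sole one of 5 Sox genes on that list to be higher.

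In P45 hippocampus Cspg4 fell in the Chd2 heterozygotes and the other 6 members were not called. Cspg4 was at 38.6, 37.7 and 35.5 CPM in WT and 27.1, 23.1 and 24.3 in HET, so that the highest HET library was below the lowest WT library. It was lower by 33.4%, -0.59 on the log2 scale (SE 0.08, edgeR adjusted p = 0.00573), and ranked 24 of 15283 genes by p. Of all genes, 1.07% were called in this comparison and 0.811% were lower. The groups did not overlap for Cspg4 alone of the 7, which was true of 20.8% of all genes. The adjusted p was 0.0621 without HET 3 and 0.491 in 1 fit of all 18 libraries, where the spread is shared with the embryonic tissues.

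The intervals of the other 6 members included no difference. Pdgfra differed by 0.07 (SE 0.06, adjusted p = 0.649), with a 95% interval of 0.955 to 1.15 in HET relative to WT. The intervals were 0.891 to 1.15 for Olig1 and 0.855 to 1.19 for Olig2. They were wider for Sox10 (0.764 to 1.54), Gpr17 (0.702 to 1.06) and Nkx2-2 (0.837 to 1.52). Cspg4 lay at 0.590 to 0.752, outside those of Pdgfra, Olig1, Olig2, Sox10 and Nkx2-2. Within each library, the ratio of Cspg4 to Pdgfra on the CPM scale was 0.669, 0.707 and 0.645 in WT and 0.487, 0.389 and 0.414 in HET. The ratios did not overlap, and the exact two-sided permutation p was 0.1, the smallest that 20 arrangements of 3 against 3 can give, for a difference of -0.65 on the log2 scale chosen after the values were seen.

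**Figure D3:**
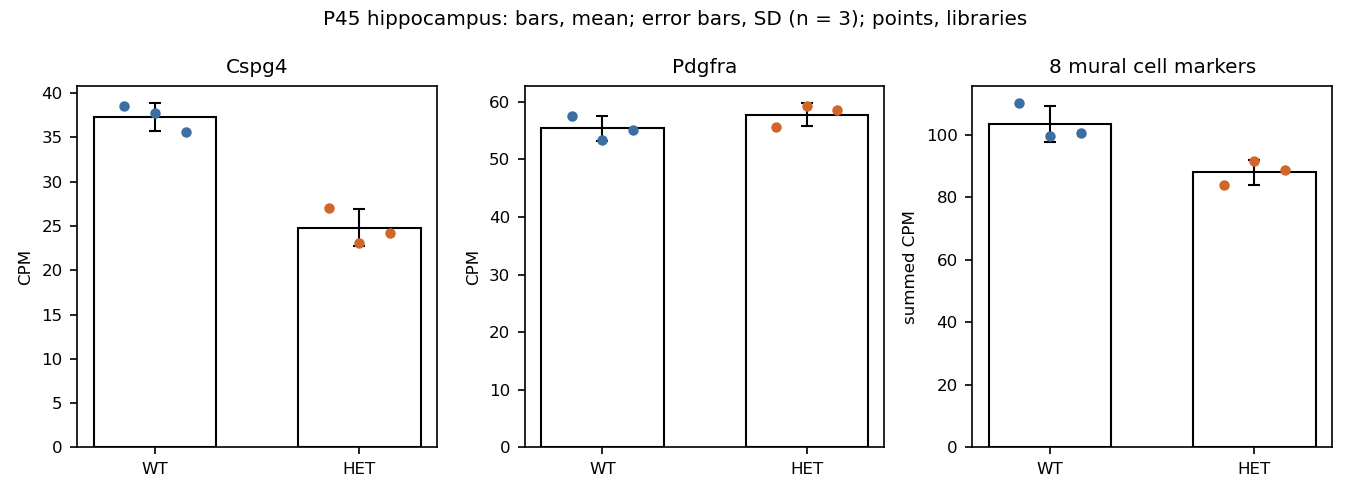
P45 hippocampus, with bars for the mean, error bars for the SD (n = 3) and points for libraries, for Cspg4 and Pdgfra in CPM and for the summed CPM of 8 mural cell markers. Cspg4 lies at 35.5 to 38.6 in WT and 23.1 to 27.1 in HET, Pdgfra overlaps, and the mural sum lies at 99.7 to 110 in WT and 83.7 to 91.4 in HET.

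Cspg4 is also a gene of pericytes and other mural cells, and the sum of those markers was also lower in HET. The 8 other mural markers summed to 99.7 to 110 CPM in WT hippocampus and 83.7 to 91.4 CPM in HET, without overlap. With edgeR none of the 8 was called and 3 had an unadjusted p under 0.05, as had 15.6% of all genes, and 7 were below zero, with a median of -0.24 against 0.00 over all genes. Notch3, a receptor of mural cells, was at -0.42 (SE 0.13, adjusted p = 0.148), Pdgfrb, the PDGF receptor of pericytes, at -0.21 (SE 0.08, adjusted p = 0.217), Rgs5 at -0.28 (SE 0.11, adjusted p = 0.256) and Kcnj8 at 0.29 (SE 0.19, adjusted p = 0.505). Their part in the Cspg4 difference was not tested.

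The other precursor markers in hippocampus gave no called gene among 11 with edgeR and 1 with an unadjusted p under 0.05, with a median of -0.03. Tnr had the lowest p and was at 132 to 159 CPM in WT and 111 to 135 in HET (-0.30, SE 0.09, adjusted p = 0.151), and Lhfpl3 was at 0.24 (SE 0.12, adjusted p = 0.389). Later stages held 1 call each way. Opalin, a protein of mature oligodendrocytes, rose from 24.7, 29.4 and 22.1 CPM in WT to 43.6, 36.6 and 48.7 in HET (0.76, SE 0.13, adjusted p = 0.0293). Prom1, on the list of newly formed oligodendrocytes and also a gene of progenitors and ependyma, fell from 17.99, 20.8 and 21.5 CPM to 15.6, 12.9 and 14.6 (-0.48, SE 0.10, adjusted p = 0.0472). Differences were positive for 11 of the 12 myelin genes (median 0.29), and Mobp was at -0.01. Aspa (0.48, SE 0.11, adjusted p = 0.0689) and Cnp (0.32, SE 0.15, adjusted p = 0.360) were not called. The 12 genes summed to 7105 to 8996 CPM in WT and to 11183, 7565 and 10200 in HET 1, HET 2 and HET 3. HET 2 thus lay within the WT range. With edgeR none of the 6 other PDGF genes or 12 Sonic hedgehog genes was called, 1 and 2 had an unadjusted p under 0.05, and Sufu, an inhibitor of the Gli factors, was at -0.32 (SE 0.08, adjusted p = 0.0802).

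In MGE no member was called by genotype. The test covered 6 of the 7 genes, since Nkx2-2 had 8 reads in each genotype, and at an unadjusted p under 0.05 there were still 0, as there were with adjusted p from DESeq2 and limma-voom. Over all genes 0.0479% were called, 7 of 14624. Of the 6, 4 were below zero. Sox10 was at 2.68, 1.36 and 2.56 CPM in WT and 1.47, 1.38 and 1.38 in HET, a difference of -0.66 (SE 0.30, unadjusted p = 0.0535, edgeR adjusted p = 0.980). Pdgfra was at -0.38 (SE 0.18, adjusted p = 0.980), with an interval of 0.586 to 1.01. WT 2 lay with the HET libraries for both genes, and the other 2 WT libraries were above all 3 HET libraries. Olig1 differed by -0.33 (SE 0.17, adjusted p = 0.980). Olig2 (0.883 to 1.24), Gpr17 (0.721 to 1.41) and Cspg4 (0.675 to 1.32) had intervals on both sides of 1. Of the 10 other precursor markers that could be tested in MGE none was called either and 2 had an unadjusted p under 0.05, as had 4.51% of all genes, with a median of -0.17 against 0.01 over all genes. The 3 WT libraries carry Xist and the 3 HET libraries Y-linked genes, so any of these differences in MGE is confounded with sex markers.

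In cortex no member was called either, and HET libraries differed among themselves. The test covered Pdgfra, Cspg4, Olig1 and Olig2, none of which had an unadjusted p under 0.05 or was called by DESeq2 or limma-voom. Over all 14757 genes 0% were called with edgeR and 7.89% had an unadjusted p under 0.05, and DESeq2 called 8 genes and limma-voom 0. Olig2 was at 0.671 and 0.685 CPM in HET 1 and HET 2 and at 1.70 in HET 3, just above the highest WT library. The difference was -0.64 (SE 0.42, adjusted p = 0.585) with an interval of 0.327 to 1.27. Olig1 differed by -0.58 (SE 0.52, adjusted p = 0.654), with the same 2 libraries low. Without HET 1 and HET 2, where HET 3 alone stands for HET cortex and is assumed to vary like the WT libraries, Olig2 was at 0.08 and Olig1 at 0.09. Without HET 3, Olig2 was at -1.23 (adjusted p = 0.0362), a setting in which 4598 genes were called.

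Some markers of ventral progenitors were low in the same libraries as Olig1 and Olig2. Dlx1 was at 7.66, 5.30 and 8.20 CPM in WT and 2.20, 1.99 and 7.56 in HET, and Dlx2 at 6.51, 5.49 and 10.2 CPM in WT and 3.35, 2.19 and 6.78 in HET. Both were low in the same 2 HET libraries. Nkx2-1 was at 0.484 to 1.55 CPM in WT and 0.383 to 0.558 in HET, and Sox6 went the other way, at 140 and 143 CPM in HET 1 and HET 2 against 92.5 to 112 in the other 4. The 10 ventral markers summed to 171 to 175 CPM in WT cortex and 156 to 205 in HET cortex, a sum that Sox6 dominates. With edgeR none of the 6 that could be tested was called and 0 had an unadjusted p under 0.05, with a median of -0.82 against 0.01 over all genes. Their part in the Olig1 and Olig2 values was not tested.

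**Figure D4:**
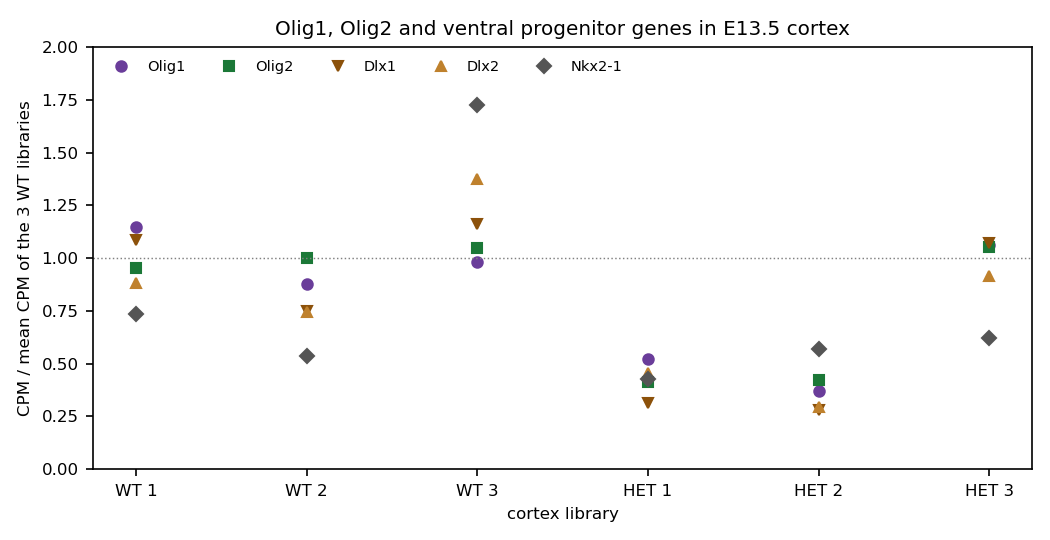
Cortex at E13.5, with each gene's CPM divided by its mean over the 3 WT libraries, on a linear axis from 0, for Olig1, Olig2, Dlx1, Dlx2 and Nkx2-1 in each library. HET 1 and HET 2 are below every WT library for Olig1, Olig2, Dlx1 and Dlx2, and HET 3 is within the WT range for Olig1, Dlx1 and Dlx2 and just above it for Olig2.

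Pdgfra and Cspg4 did not share that drop. Pdgfra was at 18.8, 23.5 and 26.8 CPM in HET cortex and 28.1, 15.9 and 21.01 in WT (0.10, SE 0.23, adjusted p = 0.865). Cspg4 was at 4.06, 4.21 and 4.94 CPM in HET and 4.40, 3.07 and 3.36 in WT (0.30, SE 0.23, adjusted p = 0.610). Sox10 had 2 reads in each cortex genotype, all in replicate 3, and Gpr17 had 1 in WT and 10 in HET, which are too few to compare.

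**Figure D5:**
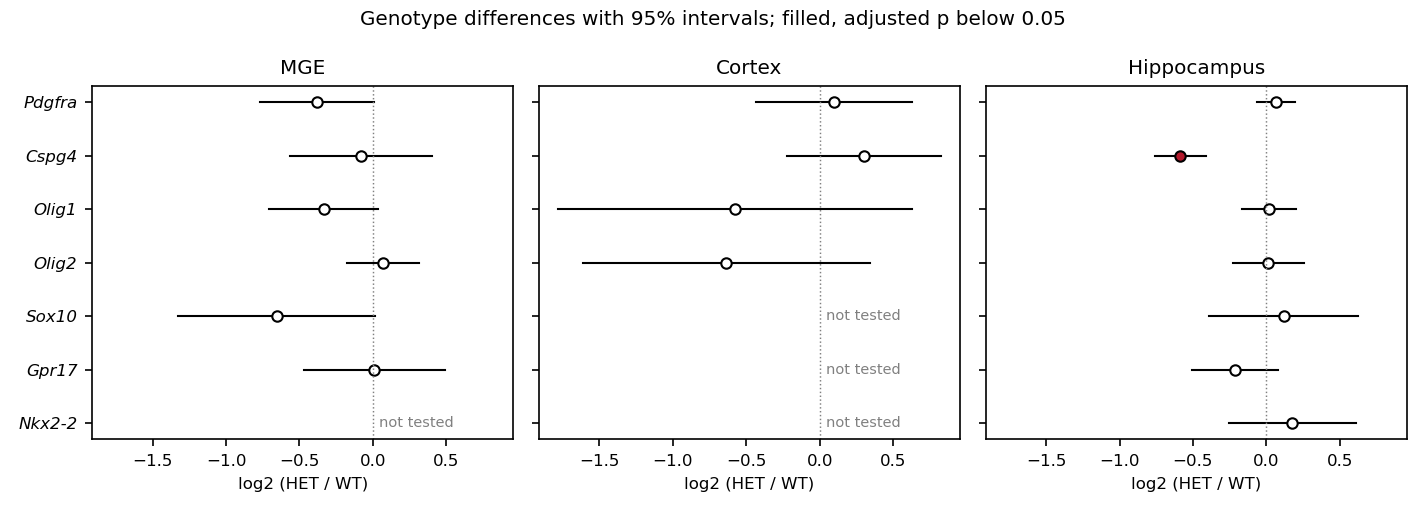
Log2 ratio of HET to WT for each gene in each tissue, with 95% intervals; filled symbols have an adjusted p below 0.05. Cspg4 in hippocampus is the one filled point, and the cortex intervals of Olig1 and Olig2 are the widest.

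Whether the genotype difference itself depended on tissue was tested in 1 fit of the 18 libraries. No member was called in any of the 3 pairs of tissues with edgeR or limma-voom, with 2, 1 and 2 members at an unadjusted p under 0.05, against 7.01%, 7.36% and 12.8% of all genes. Gpr17 was among these members in both pairs with cortex (edgeR unadjusted p = 0.0231 and 0.0147). It rests there on 1 WT and 10 HET cortex reads, too few to compare. Over 16125 genes the called share was 0% between MGE and cortex, 0.0062% between MGE and hippocampus and 0.0124% between cortex and hippocampus. For Cspg4 the difference between cortex and hippocampus was 0.88 (SE 0.27, unadjusted p = 0.00417, adjusted p = 0.312), and between MGE and hippocampus it was 0.51 (SE 0.25, adjusted p = 0.680). The fall of Cspg4 is therefore not shown to be confined to hippocampus. For Olig2 the difference between MGE and cortex was 0.69 (SE 0.32, adjusted p = 0.710), and without cortex HET 3 it was 1.33 (adjusted p = 0.0102). Between cortex and hippocampus Olig2 was at -0.63 (adjusted p = 0.412), and -1.28 without cortex HET 3 (adjusted p = 0.00565). Leaving out cortex HET 3 keeps HET 1 and HET 2, which stood apart, and 4598 genes were then called by genotype in cortex.

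The genes most like each member across the 18 libraries were found by Pearson's r of log2 CPM over 12599 genes. These coefficients mostly reflect tissue and carry no test. For Olig2 they were Pid1 (0.988), the hedgehog receptor Ptch1 (0.984) and Fam65b (0.983), and only 26 genes exceeded an r of 0.95. For Olig1 they were Ptprn2 (0.997), Asrgl1 (0.993) and Akap6 (0.992), with 182 genes above 0.95. For Cspg4 they were Pnmal2, Bace1 and Sorcs2 (each 0.982), with 292 above 0.95, and for Pdgfra they were Ccbe1 (0.986), Apod (0.981) and Sardh (0.980). Sox10 was most like Trank1 (0.993), Kcnab3 (0.992) and Dlgap3 (0.992), and Gpr17 most like Rtkn (0.991), Slit1 (0.990) and Spon1 (0.988). Once the group means were removed, no gene exceeded 0.95 for any member. The closest were then Mrpl20 (0.941) for Olig2, Npas1 (0.930) for Olig1, Zzef1 (0.918) for Cspg4, Efcab2 (0.905) for Pdgfra, Adck5 (0.886) for Gpr17 and Kif3a (0.881) for Sox10. Nkx2-2 fell below the level set for this comparison.

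Among the members themselves, the deviations from group means in the 6 hippocampal libraries went together for Cspg4 and Sox10 (r = 0.925), Olig1 and Gpr17 (r = 0.914) and Olig2 and Gpr17 (r = 0.890), while Pdgfra and Gpr17 were at -0.807. In cortex Pdgfra and Cspg4 were at 0.941 and Olig1 and Olig2 at 0.900. In MGE, Olig1 and Olig2 were at -0.728 and Pdgfra and Sox10 at 0.806. Each coefficient rests on 6 libraries that share the scaling of their depth, and none is a test. HET 2 was the lowest hippocampal library for Cspg4, Olig1, Olig2 and Gpr17.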

How the data were processed

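Total RNA was extracted with Trizol and libraries were made with the NEBNext Ultra kit after poly(A) selection, per the labels' protocols. TopHat2 2.1.1, FastQC, Trimmomatic, SAMtools and DESeq2 were used with the mm10 build, per the submitters' processing notes. Which program, annotation and strand setting gave the counts is, in the sources used here, not given. The deposited table holds raw read counts per gene symbol, as the authors counted them. Groups follow the sample titles. Counts were tested with edgeR 4.0.16 (R 4.3.3; robust quasi-likelihood F test, TMM scaling, filterByExpr with a minimum count of 10 and a minimum total of 15) for each pair of groups, and interactions in 1 fit of 18 libraries. p-values were adjusted over all genes (Benjamini-Hochberg), and SE is the size of the log2 fold change over the root of F. The scripts were tested on simulated counts. Correlations used log2 CPM with a prior count of 2. Alternatives used RLE or upper quartile scaling, no filter, DESeq2 1.42.0, limma-voom 3.58.1, 1 fit of all libraries, a replicate block, a Y-linked covariate, and fits without single libraries. All members were described in every comparison; from each other list up to 4 genes with the lowest p were named, with both directions where both occurred, and some that this rule picks are not reported here. The members and lists were chosen with earlier results of these data known. Replicate numbers did not pair the samples: in each genotype comparison at least 1 pair of same-numbered libraries correlated at or below 0.1.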

Additional observations from a re-analysis of the deposited data

How the results depend on the processing

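Of 859 values of single genes over the alternatives, 829 kept their direction and their side of the threshold. These include the large tissue differences and values called in neither setting, so the share does not measure how firm the genotype call is. Over all genes, the number called by genotype in cortex (0) became 1 without the filter on low counts, 8 with DESeq2, 4 in 1 fit of all 18 libraries and 1 without cortex HET 1 and HET 2. In hippocampus it went from 164 to 291 without the filter, 433 with DESeq2, 11 in 1 fit of all 18 libraries, which also left 0 members called, 80 with the replicate block and 87 with a Y-linked covariate. The Y-linked genes summed to at most 0.104 CPM in hippocampus, so that covariate held counting noise there and made no adjustment for sex. In MGE the number of genes called went from 7 to 36 with DESeq2. Between MGE and cortex in HET it went from 3846 to 6612 in 1 fit of all 18 libraries. Leaving out 1 library at a time gave 0 to 4598 genes and 0 to 1 members in cortex (4598 and 1 without HET 3), 23 to 292 genes and 0 to 1 members in hippocampus (23 and 0 without HET 3, 37 without WT 2, 292 without WT 1), 5 to 27 genes in MGE, 2204 to 4680 genes between MGE and cortex in HET, and 0 to 1 members for the genotype effect of MGE against cortex and of cortex against hippocampus. The cause was not tested.

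Some differences that were not called changed sign. Without cortex HET 1 and HET 2, which leaves 1 HET library, Olig1 went from -0.58 to 0.0857 and Olig2 from -0.64 to 0.0807 in cortex, and limma-voom put Olig2 at -9e-04 in hippocampus. Leaving out 1 library at a time gave, in MGE, -0.21 to 0.13 for Cspg4, -0.14 to 0.28 for Gpr17 and -0.0011 to 0.15 for Olig2, in cortex, -0.0845 to 0.31 for Pdgfra, and in hippocampus, -0.0586 to 0.11 for Olig1, -0.11 to 0.13 for Olig2 and -0.0441 to 0.24 for Sox10. For Olig2 it gave -0.0607 to 0.18 for the genotype effect of MGE against hippocampus.

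The replicate numbers correlated between -0.22 and 0.09 in hippocampus and did not pair the samples; with the replicate block Cspg4 kept its call in hippocampus (-0.59, adjusted p = 0.0174), and it changed no other call of a member except Pdgfra between WT MGE and WT cortex. DESeq2 and edgeR without the filter kept the Cspg4 call. Depth limits Sox10, Gpr17 and Nkx2-2 in cortex, where a group holds 0 to 10 reads, and Nkx2-2 in MGE.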
